A study of Homo sapiens with 6 samples.

Results

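Histone lysine methylation is written and removed by small families of enzymes, and transcripts of 49 of their genes were followed in the human pancreatic carcinoma line MIA PaCa-2 after exposure to BP (black phosphorus, a layered allotrope of the element), alone or with Huaier, the extract of a medicinal fungus. The genes were taken by symbol from a list of 31 methyltransferase genes, called writers here, and 18 demethylase genes, called erasers, and all 49 were found among the 60604 genes of the count table. The BP group held 3 libraries of cells given 12.5 µg/ml BP, and the BP+Huaier group held 3 libraries of cells given 12.5 µg/ml BP with 10 mg/ml Huaier. Both groups therefore carried BP, both were labelled wild type, no BP-free cells were analysed here, and the length of treatment is not given in the labels. The libraries were made from bulk RNA, in which fewer cells and less RNA per cell cannot be told apart. Whether replicate libraries stem from separate cultures is not stated, and p-values here reflect library-to-library spread, possibly technical.

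Writers with a SET domain, and DOT1L with a fold of its own, move methyl groups from S-adenosylmethionine to defined lysines of histone tails or of the nucleosome core. Methylation of H3K4, H3K36 and H3K79 is found mostly on active promoters, enhancers and gene bodies, and that of H3K9, H3K27 and H4K20 mostly on repressed chromatin. Erasers use flavin (KDM1A and KDM1B) or iron and 2-oxoglutarate (the Jumonji C families) to take the groups off again. In pancreatic carcinoma several of these genes, among them KMT2C, KMT2D and KDM6A, are known targets of mutation.

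The libraries held between 15657593 and 17036565 counts on genes. BP+Huaier 3 differed from its replicates. Principal component 1 (72.4% of variance) placed it at 11.5, BP+Huaier 1 and 2 at 65.1 and 66.0, and BP from -50.5 to -43.4. Keratin genes KRT8, KRT18 and KRT19 and vimentin were expressed in every library (at least 212 CPM), whereas EPCAM and KRT7 had at most 5 counts in a library, and acinar, endocrine and leukocyte markers at most 9. CDH5, an endothelial cadherin, was at 11.7 to 21.1 CPM, with at most 5 counts for the endothelial markers PECAM1 and VWF. Of the fibroblast markers, COL3A1 was at 6.58 to 7.55 CPM, COL1A1 at 1.22 to 6.43 CPM and DCN at 0. CPM are counts scaled to a common library total and adjusted by the trimmed mean of M-values (TMM), and compare one gene across libraries. Levels of different genes are compared as CPM per kb of exon. The exon length covers all annotated exon bases of a gene and can exceed the length of the transcript present. Such comparisons are therefore approximate and may rank genes wrongly.

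In BP cells the erasers KDM1A and KDM3B had the highest levels per length of all 49 genes, 27.2 ± 0.37 and 23.0 ± 0.17 CPM per kb (SD, n = 3). KDM1A, also called LSD1, demethylates H3K4 within the CoREST complex, and KDM3B acts on H3K9. SMYD5 at 20.4 ± 0.71 and KDM5C, an H3K4 demethylase encoded on the X chromosome, at 15.3 ± 0.95 CPM per kb came next. SMYD5 led the writers, followed by the H3K9 methyltransferase EHMT2 (G9a) at 14.2 ± 1.05 and the H3K36 methyltransferase NSD2 at 12.95 ± 0.10 CPM per kb, which differed by little more than the spread of EHMT2. The lowest writers by this measure were SETDB2 and KMT2C, at 1.41 ± 0.10 and 1.54 ± 0.09 CPM per kb, which also differed by little more than their spread. The rank of KMT2C depends on its long annotated exon length. All 31 writers and 17 of 18 erasers passed the filter on low counts.

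**Figure D1:**
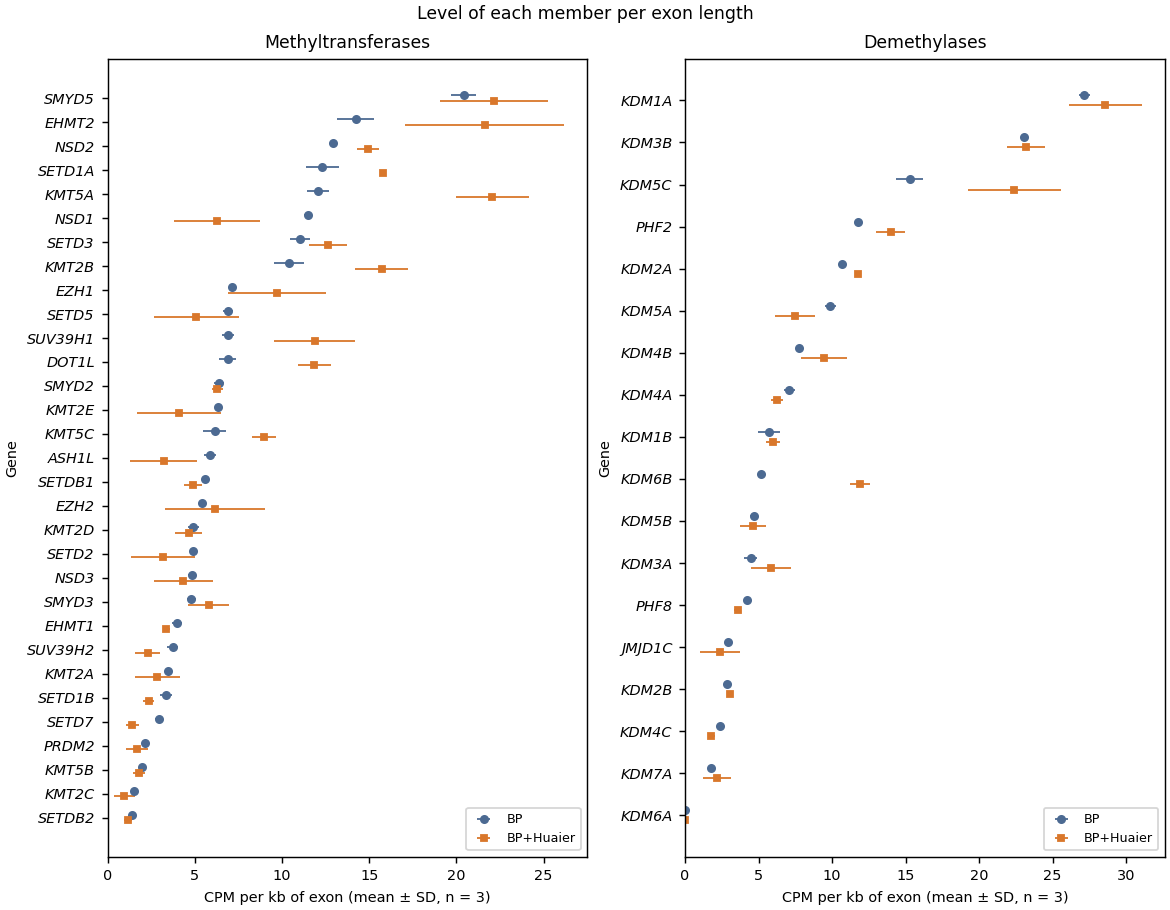
Mean level of each writer (left) and eraser (right) in CPM per kb of exon, with SD over 3 libraries, in BP (circles) and BP+Huaier (squares). KDM1A and KDM3B have the highest levels per kb of annotated exon and KDM6A lies at 0.

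The exception was KDM6A (UTX), an H3K27 demethylase of the KMT2C and KMT2D complexes. Its gene (ENSG00000147050.17, GRCh38 chromosome X, 44873188 to 45112779) had 0 counts in 5 libraries and 1 count in BP 2, and 3 counts would correspond to 0.160 to 0.222 CPM. KDM6A was thus not detectable at this depth in either group, and no fold change is given for it. The other protein-coding genes between MAOA and KRBOX4 on the X chromosome, MAOB, NDP, EFHC2, FUNDC1, DUSP21 and DIPK2B, had 0 counts in all 6 libraries. MAOA had 115 to 179 counts in a library and KRBOX4 150 to 434. FUNDC1, a receptor of mitophagy at the outer mitochondrial membrane, is thus listed at 0 in the same stretch as KDM6A. DNA copy number was not measured.

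With Huaier added, 8 of the 48 tested genes rose and 4 fell (edgeR quasi-likelihood test, Benjamini-Hochberg adjusted p under 0.05 over all genes). Among all 15022 tested genes 29.3% were called, 14.4% higher and 15% lower, against 16.7% and 8.33% of the members. In this test the share of rises was near the background and that of falls under it. The share of falls was not under the background without a filter on low counts (14.3% of members, 9.63% of all genes) or without BP+Huaier 3 (33.3% and 31%). In the main test the risen genes were the writers KMT5A, DOT1L, SUV39H1, EHMT2, KMT2B and KMT5C and the erasers KDM6B and KDM5C. The fallen genes were the writers SETD7, NSD1, SUV39H2 and SETD1B. Writers therefore went both ways, 6 of 31 up and 4 down, with a median log2 fold change of -0.13. Of the erasers 2 of 17 were called up and 0 down by edgeR, with a median of 0.07, while the median of all tested genes was -0.02. At an unadjusted p under 0.05 by edgeR 2 erasers lay higher and 2 lower, 11.8% each, where 21.2% and 22.1% of all tested genes did so. DESeq2 and limma-voom also called 0 erasers lower, where 16.2% and 16.7% of all tested genes were lower. Scaled by library size alone, 4 erasers were lower (23.5%, against 19.7% of all tested genes). Without BP+Huaier 3, 3 were lower (17.6%, against 31%). The difference between writers and erasers was not tested, since genes are not replicates. The 2 groups were fully separated, with no shared range, in 15 members that were higher and 11 that were lower out of 48. Of all tested genes 21.9% and 24.9% were separated in these directions, 46.8% in all.

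**Figure D2:**
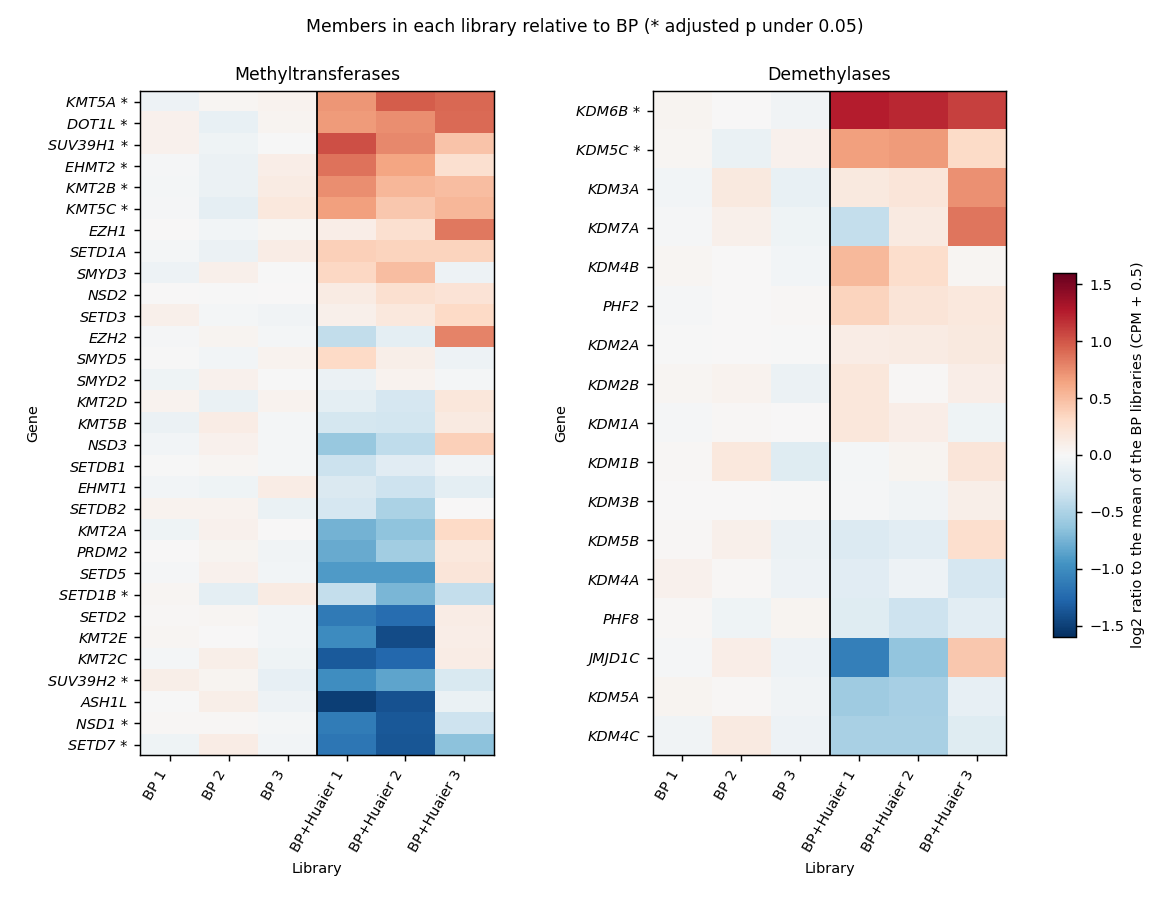
Log2 ratio of each tested writer (left) and eraser (right) to the mean of the BP libraries, by library (colour; CPM + 0.5), ordered by fold change, with an asterisk for an adjusted p under 0.05. Rises at the top appear in all 3 BP+Huaier libraries, while many of the falls are seen in BP+Huaier 1 and 2, with SETD7, NSD1, SUV39H2 and SETD1B lower in all 3.

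The largest change among the members was the rise of KDM6B (JMJD3), the H3K27 demethylase known to be induced by inflammatory and stress signals. KDM6B (ENSG00000132510.11, chromosome 17, 7834217 to 7854796) was at 39.4, 38.4 and 36.7 CPM in BP and at 92.1, 89.0 and 82.3 CPM in BP+Huaier. The 3 BP+Huaier libraries lay close together, BP+Huaier 3 included, and all were more than double every BP library. The rise was 2.30-fold (log2 fold change 1.20 ± 0.13, SE; edgeR adjusted p = 8.9e-04). KDM6B, KMT5A, DOT1L and SETD7 were the members called in the same direction under all 17 alternative settings.

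KMT5A (SET8), which places the single methyl group on H4K20 and is known for its role in the cell cycle, was at 52.0, 56.5 and 57.2 CPM in BP and 90.1, 108 and 104 CPM in BP+Huaier. It rose 1.83-fold (log2 fold change 0.87 ± 0.13, SE; edgeR adjusted p = 0.0029). KMT5C, which adds further methyl groups to H4K20, was at 28.8, 26.3 and 32.8 CPM against 46.3, 39.6 and 42.5 CPM, a 1.46-fold rise (edgeR adjusted p = 0.022). Its paralog KMT5B had 17.1 ± 1.33 and 15.6 ± 2.87 CPM (not called, edgeR adjusted p = 0.58). Leaving out BP 1, BP 2 or BP+Huaier 2 ended the KMT5C call (edgeR adjusted p = 0.053 to 0.11), as did removing each library's trend with transcript GC content and length (0.49) and scaling by library size alone (0.19).

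DOT1L, the sole known H3K79 methyltransferase, had 83.2, 72.9 and 81.5 CPM in BP and 127, 133 and 148 CPM in BP+Huaier. The groups did not overlap, and BP+Huaier 3 was the highest library. Its rise was 1.72-fold (log2 fold change 0.78 ± 0.13, SE; edgeR adjusted p = 0.0041). Of the 11 tested genes that act with DOT1L in transcription elongation, ELL, ELL2 and PAF1 rose (27.3%, against 14.4% of all tested genes) and AFF1 fell (9.09%, against 15%). ELL, an elongation factor of RNA polymerase II, went from 39.0 ± 4.47 to 88.5 ± 17.6 CPM (SD, n = 3; edgeR adjusted p = 0.0029), and the related ELL2 from 4.22 ± 0.29 to 7.31 ± 0.79 CPM. AFF1, a scaffold of the super elongation complex, went from 36.4 ± 1.27 to 23.4 ± 6.69 CPM (edgeR adjusted p = 0.040).

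SETD7, a writer of single methyl groups on H3K4 that also methylates many non-histone proteins, had the largest fall. SETD7 (ENSG00000145391.14, chromosome 4, 139495941 to 139606699) was at 38.9, 44.2 and 39.6 CPM in BP and 18.02, 15.5 and 25.7 CPM in BP+Huaier. Every BP+Huaier library lay below every BP library, with BP+Huaier 3 the nearest to them. It fell 2.07-fold (log2 fold change -1.05 ± 0.20, SE; edgeR adjusted p = 0.0063).

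Upstream sequences are shown for KMT5A, KDM6B and SETD7, whose changes held under every alternative and went in opposite directions. The change of DOT1L also held, but no upstream sequence was available for it. Each is the 250 bases before the RefSeq start (GRCh38.p14), at chr12:123383882-123384131 on the plus strand for KMT5A, chr17:7833967-7834216 on the plus strand for KDM6B and chr4:139556220-139556469 on the minus strand for SETD7. The SETD7 stretch lies within the span given above for the counted gene, so it is upstream of the RefSeq start only. Capitals mark matches on either strand to GGGCGG (the SP1 box) and CCAAT, and TGACG (the CRE core), TGANTCA (AP-1) and CCGGAA (the ETS core) were also searched. None of these searched motifs overlapped another in the sequences shown.
KMT5A: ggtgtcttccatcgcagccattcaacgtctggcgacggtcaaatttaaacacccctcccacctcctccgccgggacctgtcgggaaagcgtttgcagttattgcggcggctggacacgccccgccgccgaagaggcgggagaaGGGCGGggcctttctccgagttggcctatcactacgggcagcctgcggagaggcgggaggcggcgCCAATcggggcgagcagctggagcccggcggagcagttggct
KDM6B: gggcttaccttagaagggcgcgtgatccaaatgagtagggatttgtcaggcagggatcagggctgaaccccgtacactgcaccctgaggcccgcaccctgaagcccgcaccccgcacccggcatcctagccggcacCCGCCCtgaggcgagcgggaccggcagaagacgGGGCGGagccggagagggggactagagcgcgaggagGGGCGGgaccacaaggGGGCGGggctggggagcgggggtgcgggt
SETD7: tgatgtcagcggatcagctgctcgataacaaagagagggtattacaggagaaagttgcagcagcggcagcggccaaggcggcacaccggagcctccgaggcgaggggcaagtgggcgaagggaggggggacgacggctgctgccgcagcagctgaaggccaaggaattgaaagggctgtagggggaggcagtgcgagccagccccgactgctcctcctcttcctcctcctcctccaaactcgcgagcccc
The KDM6B sequence held 4 SP1 boxes, that of KMT5A 1 SP1 box and 1 CCAAT box, and that of SETD7 none of the 5 motifs. Their GC content was 70.4%, 66.4% and 64.0%. Of 27305 promoters of this length 42.3% held an SP1 box, 33.0% CCAAT, 21.7% TGACG, 6.6% TGANTCA and 14.8% CCGGAA, and of the 46 members with an entry 73.9%, 30.4%, 21.7%, 4.35% and 17.4% did so. A match describes these letters and not a bound site.

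Writers of H3K9, which form the mark of heterochromatin, moved in both directions. Of 7 tested, 2 were called higher (28.6%, against 14.4% of all tested genes) and 1 lower (14.3%, against 15%). SUV39H1, the methyltransferase of constitutive heterochromatin, was at 23.5, 21.2 and 22.2 CPM in BP and 45.9, 38.3 and 30.9 CPM in BP+Huaier, a 1.72-fold rise (log2 fold change 0.78 ± 0.17, SE; edgeR adjusted p = 0.011). Its paralog SUV39H2 was at 14.2, 13.8 and 12.05 CPM against 6.43, 7.17 and 11.2 CPM, a 1.61-fold fall (log2 fold change -0.68 ± 0.23; edgeR adjusted p = 0.049). The groups did not overlap for either gene, and BP+Huaier 3 was the library nearest to BP in both. EHMT2, the catalytic partner of EHMT1 at euchromatic H3K9, was at 102, 96.6 and 112 CPM in BP and 189.7, 159.9 and 123 CPM in BP+Huaier, a 1.52-fold rise (edgeR adjusted p = 0.030). EHMT1 itself had 88.7 ± 6.22 and 74.8 ± 4.53 CPM (not called, edgeR adjusted p = 0.17). SETDB1, which methylates H3K9 at retroelements, was at 39.5, 40.6 and 38.6 CPM against 31.02, 34.9 and 38.2 CPM (edgeR adjusted p = 0.31), with 13.4% of its exon bases shared with CERS2 on the opposite strand. SETDB2 and PRDM2 did not pass either (log2 fold changes -0.25 and -0.34). Leaving out BP 2 or BP 3 ended the SUV39H1 call (edgeR adjusted p = 0.061 and 0.051), and leaving out any library other than BP+Huaier 3 ended those of SUV39H2 and EHMT2 (0.097 to 0.17 and 0.068 to 0.13). Scaling by library size alone ended the calls of SUV39H2 (0.052) and EHMT2 (0.088), and DESeq2 size factors that of SUV39H2 (0.051). Of the exon bases of SUV39H1 21.2% were shared with an unnamed gene on the opposite strand that had 6 counts over the 6 libraries.

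Among readers and partners of H3K9 methylation, 4 of 15 tested genes fell, 26.7% against 15% of all tested genes, and 1 rose, 6.67% against 14.4%. TASOR and MPHOSPH8, subunits of the HUSH complex that silences retroelements, both fell. TASOR was at 75.0 ± 3.54 CPM in BP and 23.8 ± 8.41 CPM in BP+Huaier (SD, n = 3), 3.14-fold lower (log2 fold change -1.65 ± 0.23, SE; edgeR adjusted p = 0.0022), which exceeded the fold change of every member. MPHOSPH8 went from 49.97 ± 3.60 to 27.9 ± 6.54 CPM (edgeR adjusted p = 0.010), a call that leaving out BP 2 or BP+Huaier 2 ended (0.057 and 0.055). PPHLN1, the remaining HUSH subunit, was not called (log2 fold change -0.40, edgeR adjusted p = 0.10). ATRX, a chromatin remodeller that deposits histone H3.3 with DAXX, went from 90.4 ± 5.12 to 48.5 ± 24.0 CPM (edgeR adjusted p = 0.045), a call lost without any single library other than BP+Huaier 3. DAXX, named here after its values were seen, had 113 ± 0.59 CPM in BP and 202 ± 36.1 CPM in BP+Huaier, a 1.79-fold rise (edgeR adjusted p = 0.0065). ZNF644, a zinc finger partner of EHMT1 and EHMT2 also named after its values were seen, was the other gene that fell (edgeR adjusted p = 0.042).

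Of the 6 writers of H3K4 in the KMT2 and SETD1 families, KMT2B rose and SETD1B fell. These were 16.7% each, near the 14.4% and 15% of all tested genes. KMT2B (MLL2 or MLL4 in older names) was at 107, 101 and 119 CPM in BP and 182, 157 and 154 CPM in BP+Huaier, a 1.51-fold rise (log2 fold change 0.59 ± 0.14, SE; edgeR adjusted p = 0.013). SETD1B was at 29.1, 25.4 and 31.1 CPM against 21.7, 16.9 and 21.7 CPM, a 1.42-fold fall (edgeR adjusted p = 0.044). Its close paralog SETD1A was at 78.3, 75.5 and 87.5 CPM against 104, 103 and 102 CPM and was not called (log2 fold change 0.36 ± 0.13; edgeR adjusted p = 0.057), but passed with DESeq2 size factors (0.048) and by DESeq2 (0.017). The KMT2B call needed BP 1 and BP 2 (edgeR adjusted p = 0.079 without either), and that of SETD1B every library other than BP+Huaier 3 (0.052 to 0.18). Scaling by library size alone also ended the KMT2B call (0.071), and DESeq2 size factors (0.054) or no filter on low counts (0.077) that of SETD1B. KMT2D, the enhancer methyltransferase, was at 129, 115 and 129 CPM in BP and 111, 103 and 140.2 CPM in BP+Huaier (edgeR adjusted p = 0.74), so BP+Huaier lay on both sides of BP. Of 14 listed COMPASS genes 1 was called higher and 1 lower, 7.14% each, against 14.4% and 15% of all tested genes. CXXC1 rose 1.73-fold (edgeR adjusted p = 0.016) and NCOA6 fell 1.52-fold (0.018). The other 12, the shared core WDR5, RBBP5, ASH2L and DPY30 among them, did not pass. CXXC1 directs the SETD1 complexes to CpG islands, and NCOA6 belongs to the KMT2C and KMT2D complexes.

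**Figure D3:**
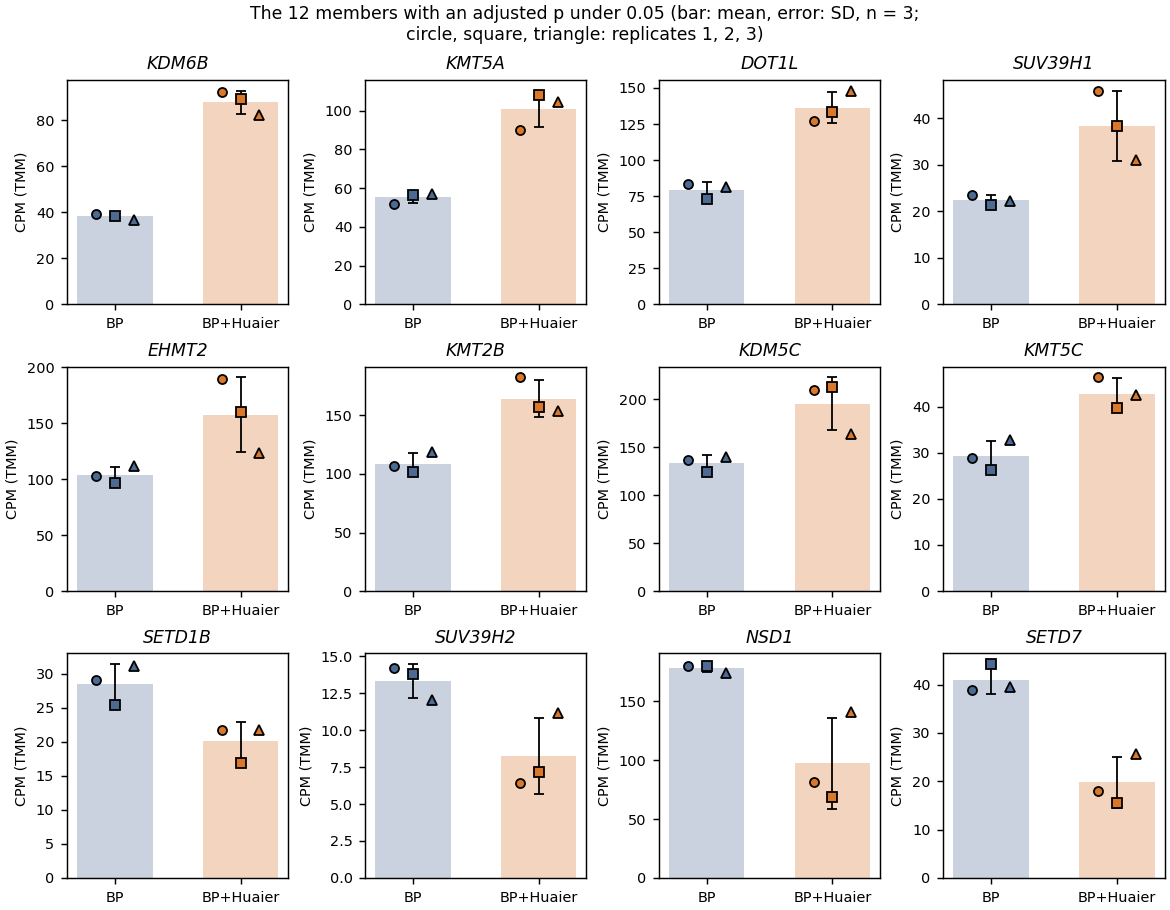
Level in CPM of the 12 members with an adjusted p under 0.05, with each library as a point, the mean as a bar and the SD over 3 libraries as the error bar. In all 12 genes the points of BP and BP+Huaier do not overlap, and BP+Huaier 3 (triangle) is the library nearest to BP in KDM6B, KMT2B, SUV39H1, EHMT2, KDM5C, SUV39H2, NSD1 and SETD7.

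Of the 5 H3K36 writers 1, NSD1, was called lower (20%, against 15% of all tested genes). In BP+Huaier 1 and 2, 4 lay below every BP library (80%). Of all tested genes 45.9% did so in BP+Huaier 1 and 45.2% in BP+Huaier 2. NSD1, which places up to a pair of methyl groups on H3K36, was at 180.3, 180.1 and 174 CPM in BP and 81.5, 69.2 and 141 CPM in BP+Huaier, a 1.83-fold fall (log2 fold change -0.87 ± 0.24, SE; edgeR adjusted p = 0.027). The NSD1 call ended without any single library other than BP+Huaier 3 (edgeR adjusted p = 0.064 to 0.10). ASH1L, a Trithorax-group H3K36 writer, was at 80.2, 85.7 and 76.2 CPM against 28.1, 30.4 and 74.9 CPM, and was not called (log2 fold change -0.86 ± 0.34; edgeR adjusted p = 0.082). It was called lower by DESeq2 (adjusted p = 0.038), limma-voom (0.041) and edgeR without a filter on low counts (8.0e-05). With DESeq2 size factors or library size alone edgeR did not call ASH1L (adjusted p = 0.086 and 0.094). Nor did edgeR without BP 1, BP 2 or BP 3 (0.16, 0.21 and 0.15). SETD2, the enzyme of H3K36 trimethylation, was at 50.5, 51.2 and 48.4 CPM in BP and at 22.5, 21.2 and 54.5 CPM in BP+Huaier (edgeR adjusted p = 0.18). In ASH1L and SETD2, BP+Huaier 1 and 2 were at 0.35 to 0.45 of the BP mean, while BP+Huaier 3 was at 0.93 and 1.09 of it. NSD3 was at 71.1, 77.2 and 71.9 CPM in BP and 48.1, 55.2 and 95.6 CPM in BP+Huaier (edgeR adjusted p = 0.67). NSD2, by contrast, was at 264, 261 and 265 CPM against 289, 315 and 307 CPM (edgeR adjusted p = 0.23).

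The same split between libraries ran through much of the writer list. In 13 of the 48 members, 27.1%, BP+Huaier 1 and 2 both lay below every BP library and BP+Huaier 3 above every BP library, where 6.34% of all 15022 tested genes did so. These were the writers KMT2A, KMT2C, KMT2D, KMT2E, SETD2, SETD5, PRDM2, EZH2, NSD3 and KMT5B and the erasers JMJD1C, KDM3B and KDM5B. KMT2A shared 17.9% of its exon bases with an unnamed gene on the same strand that had 0 counts. The opposite split was seen in KDM1A, SMYD3 and SMYD5, 6.25% of members against 5.47% of all genes. KMT2C, the enhancer methyltransferase paired with KMT2D, was at 80.4, 87.6 and 78.0 CPM in BP and 31.9, 33.9 and 88.9 CPM in BP+Huaier. KMT2E, a SET domain protein without established activity, was at 64.0, 63.2 and 61.0 CPM against 31.1, 22.9 and 67.8 CPM. Neither KMT2C nor KMT2E passed the main test over all 6 libraries (edgeR adjusted p = 0.18 for each). Without a filter on low counts edgeR called KMT2C, KMT2E and SETD2 lower (adjusted p = 0.0036, 0.0088 and 0.013). With the GC and length trend removed and the replicate number as a block, edgeR called KMT2E and SETD2 lower (0.044 and 0.0496).

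Without BP+Huaier 3, 12 members were higher and 16 lower, where 28.8% and 31% of all genes were then called in these directions. All 12 earlier calls were among them. The 12 new falls were 9 writers, ASH1L, KMT2C, KMT2E, SETD2, SETD5, KMT2A, PRDM2, NSD3 and EHMT1, and the erasers JMJD1C, KDM5A and KDM4C. Their folds ran from 2.74 for ASH1L and 2.48 for KMT2C to 1.21 for EHMT1. The new rises were SETD1A, SMYD3, KDM4B and PHF2. KDM6B was then 2.39-fold higher, KMT5A 1.81-fold and DOT1L 1.66-fold, so these 3 rises were of similar size with and without that library. Of the writers 13 of 31 were then lower and of the erasers 3 of 17.

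How many members were called changed with the setting and did not always follow the calls over all genes. Without a filter 18.4% of members were higher and 14.3% lower, more than in the main test, while the shares over all genes were smaller. Without BP 1 there were 4 higher and 1 lower (5.27% and 5.92% of all genes), without BP 2 3 and 1 (5.46% and 6.14%), and without BP 3 5 and 1 (6.61% and 6.84%). Leaving out BP+Huaier 1 gave 8 higher and 1 lower (11.4% and 11.8%), and leaving out BP+Huaier 2 gave 5 and 1 (6.08% and 6.48%). SETD7 was the single lower member in each of these. Scaled by library size alone 4 members were higher and 8 lower (7% and 19.7% of all genes), the lower ones including 4 erasers. DESeq2 size factors gave 9 and 2 (15.2% and 14.3%), no filter 9 and 7 (9.09% and 9.63%), DESeq2 9 and 5 (18.4% and 16.2%) and limma-voom 8 and 5 (14.1% and 16.7%). The replicate block gave 5 and 3 (9.03% and 11.6%), the block with the GC trend removed 10 and 7 (16.9% and 17.9%) and an adjusted p under 0.01 gave 3 and 1 (5.5% and 5.39%).

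**Figure D4:**
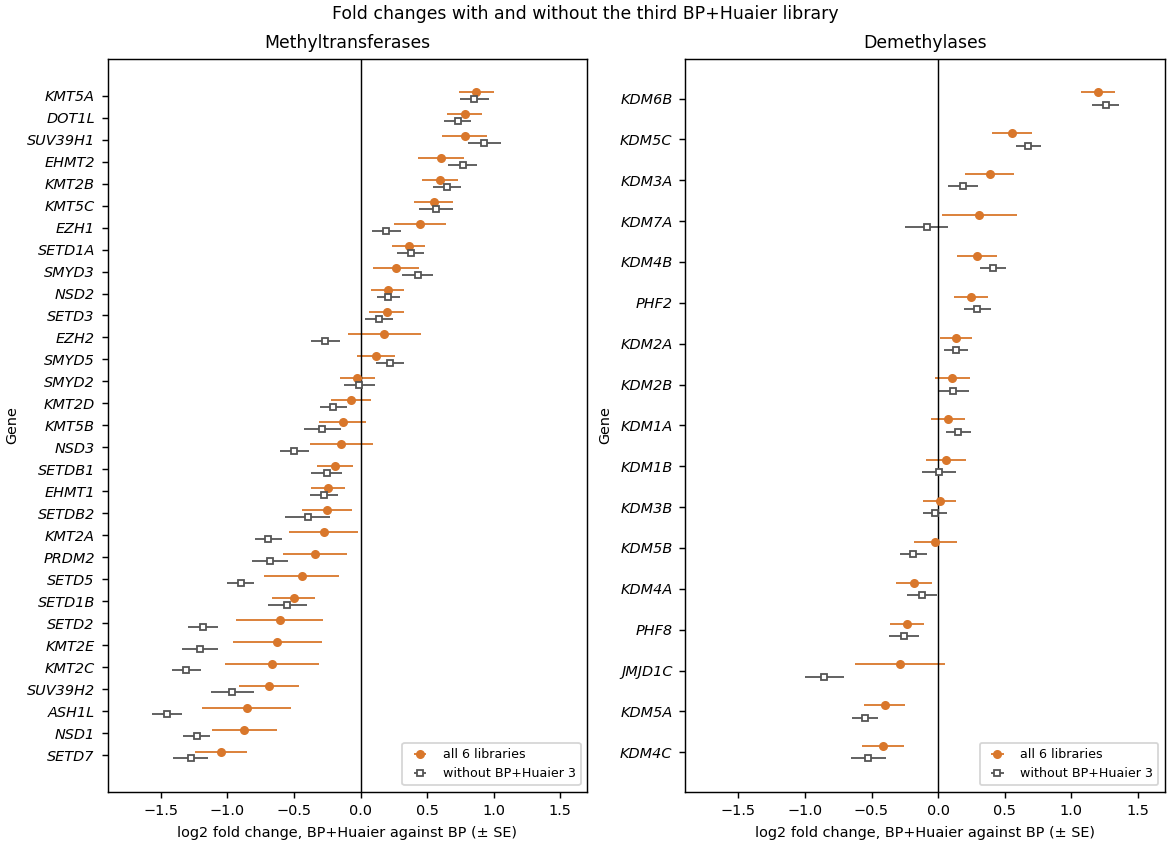
Log2 fold change of each writer (left) and eraser (right) with its SE, over all 6 libraries (circles) and without BP+Huaier 3 (squares). Rises such as KDM6B, KMT5A and DOT1L differ little between the fits, while KMT2C, KMT2E, SETD2 and ASH1L move further down and have smaller errors without BP+Huaier 3.

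EZH2, the main H3K27 methyltransferase and catalytic subunit of Polycomb repressive complex PRC2, was at 57.9, 60.6 and 57.3 CPM in BP and at 44.6, 52.3 and 102 CPM in BP+Huaier. The mean of BP+Huaier was set by BP+Huaier 3, and no difference passed (log2 fold change 0.18 ± 0.28, SE; edgeR adjusted p = 0.65). Without BP+Huaier 3 the log2 fold change of EZH2 was -0.26 (edgeR adjusted p = 0.053). EZH1, its paralog, was at 50.3, 48.4 and 51.3 CPM against 53.7, 59.99 and 90.3 CPM, above BP in 3 of 3 libraries but not past the test (edgeR adjusted p = 0.12). Per kb of exon, EZH2 and KDM6B had similar values in BP (5.44 ± 0.16 and 5.16 ± 0.18 CPM per kb). In BP+Huaier they were at 6.14 ± 2.87 and 11.9 ± 0.68. Since the length covers all annotated exons of each gene, their transcript amounts cannot be ranked from these values. Of 11 tested PRC2 subunits 1 was called higher, 9.09% against 14.4% of all tested genes. PHF1, a Polycomb-like subunit that binds H3K36 methylation, rose 2.44-fold, from 60.4, 63.2 and 72.6 CPM to 174, 165 and 139.5 CPM (log2 fold change 1.29 ± 0.15, SE; edgeR adjusted p = 0.0011). Core subunits EED and SUZ12 had log2 fold changes of -0.52 and -0.39 (edgeR adjusted p = 0.075 and 0.21).

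Among erasers of H3K4, KDM5C was at 136, 124 and 139.6 CPM in BP and 209.5, 213 and 164 CPM in BP+Huaier, a 1.47-fold rise (log2 fold change 0.55 ± 0.15, SE; edgeR adjusted p = 0.023). Leaving out any BP library or BP+Huaier 2 ended this call (edgeR adjusted p = 0.074 to 0.11), as did scaling by library size alone (0.074). KDM5A and KDM5B, its autosomal paralogs, did not pass. KDM5A was at 123, 120.2 and 114 CPM against 79.8, 81.8 and 109 CPM (edgeR adjusted p = 0.078), and KDM5B at 119, 123 and 109 CPM against 101, 104 and 141 CPM (0.93). KDM1A was at 146, 149.6 and 148 CPM in BP and at 167, 159 and 141 CPM in BP+Huaier (log2 fold change 0.07 ± 0.13; edgeR adjusted p = 0.68), and KDM1B had a log2 fold change of 0.06. Of the 12 tested subunits of the CoREST complex around KDM1A, 3 were called higher, 25% against 14.4% of all tested genes. RCOR1 and RCOR2, the scaffold proteins that hold KDM1A on nucleosomes, rose 1.51-fold and 1.95-fold (edgeR adjusted p = 0.022 and 0.013), and HMG20B rose 1.72-fold (0.025). Leaving out BP 1, BP 2 or BP+Huaier 2 ended all 3 calls.

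The other Jumonji erasers did not pass the main test over all 6 libraries. KDM3B, KDM2A and KDM2B moved little, with log2 fold changes of 0.01, 0.14 and 0.11. KDM2A, an H3K36 demethylase that binds CpG islands, stayed within 111 ± 0.11 CPM in BP and 122 ± 1.64 CPM in BP+Huaier. KDM3A, an H3K9 demethylase induced by hypoxia, was at 57.4, 66.2 and 54.6 CPM against 66.3, 67.7 and 98.9 CPM (edgeR adjusted p = 0.14). KDM7A was at 16.4, 17.5 and 15.8 CPM against 12.6, 18.4 and 30.4 CPM (0.42), again with its highest value in BP+Huaier 3. The H3K9 and H3K36 demethylases KDM4A, KDM4B and KDM4C had log2 fold changes of -0.18, 0.29 and -0.42 (of KDM4A's exon bases 40.2% were shared with an unnamed gene on the same strand that had 0 counts), and PHF8 and PHF2 of -0.23 and 0.25. The remaining SET domain writers SETD3, SMYD2, SMYD3 and SMYD5 had log2 fold changes of 0.19, -0.02, 0.27 and 0.12. SETD5 and JMJD1C, an H3K9 demethylase homolog, followed the split between libraries, at 53.6, 53.9 and 115 CPM and at 15.02, 20.8 and 44.0 CPM in BP+Huaier, against 101 ± 4.21 and 32.6 ± 2.35 CPM in BP (SD, n = 3).

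Enzymes that supply or recycle the methyl donor and cofactors were called lower in 2 of 13 cases, 15.4%, about the 15% of all tested genes. MTRR, which reactivates methionine synthase, fell 1.84-fold (edgeR adjusted p = 0.018), and D2HGDH, which clears 2-hydroxyglutarate, fell 1.57-fold (0.017). MAT2A, which makes S-adenosylmethionine, ranged from 185 to 649.5 CPM among the BP+Huaier libraries and did not pass (0.41). Of 12 tested genes among further writers and erasers outside the 49, 5 fell, 41.7% against 15% of all tested genes, and 1 rose, 8.33% against 14.4%. JMJD6, a Jumonji hydroxylase, had 40.4 ± 1.27 CPM in BP and 85.7 ± 16.8 CPM in BP+Huaier, a 2.12-fold rise (edgeR adjusted p = 0.0031), while RIOX2 and SETD4 fell 1.66-fold and 1.63-fold (0.043 and 0.026). SETMAR, KDM4D and KDM8, the remaining falls, named after their values were seen, had means of 2.09, 2.37 and 1.92 CPM in BP and 0.69, 0.76 and 0.77 CPM in BP+Huaier. Among the 23 called partner genes, TASOR, DAXX, PHF1, ELL and JMJD6 kept their call in every fit with 1 library left out, and the other 18 lost it in 2 or more of these fits.

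Fold changes of the members went with transcript GC content. Across the 48 members, which share libraries and are not replicates, the log2 fold change had r = 0.54 with the GC content of the longest transcript and r = -0.37 with log2 exon length, where all 14896 genes with a value gave 0.26 and -0.07. Members called higher had a median GC content of 61.6%, those called lower 45.7% and those not called 47.1%. GC content also moved with libraries within a group: against the other BP libraries the log2 ratio had r = -0.44 with GC content in BP 2 and 0.42 in BP 3, and against all BP libraries 0.39, 0.27 and 0.03 in BP+Huaier 1, 2 and 3. With each library's GC and length trend taken out, 11 members were higher and 5 lower, where 19% and 19.2% of genes were called. KMT2B, SUV39H1, EHMT2, DOT1L, KMT5A, KDM5C and KDM6B remained higher and all 4 falls remained. NSD2, KDM3A, KDM5B and KDM7A were then higher too, KMT5C was not called and ASH1L was called lower. The log2 fold changes were then 0.89 for KDM6B, 0.76 for KMT5A, 0.58 for DOT1L and -0.78 for SETD7.

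**Figure D5:**
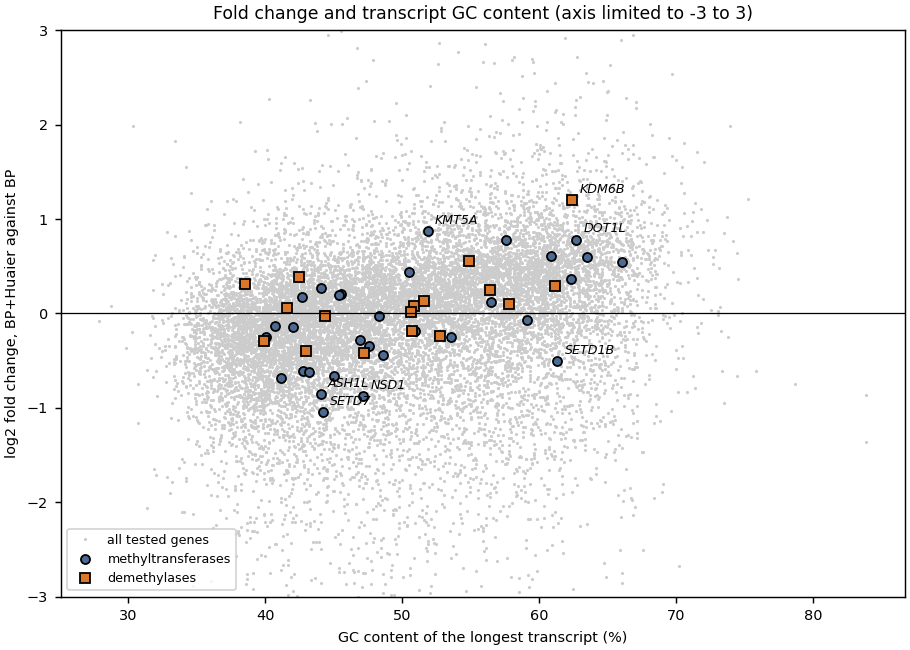
Log2 fold change of BP+Huaier against BP (vertical axis) against GC content of the longest transcript in percent, for all tested genes (grey), writers (circles) and erasers (squares). KDM6B, DOT1L and other members of high GC content lie above 0, SETD7, NSD1 and ASH1L below 50% GC lie under 0, and SETD1B lies under 0 at 61.3% GC.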

How the data were processed

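Total RNA (TRIzol) became NEBNext Ultra libraries with 150 bp paired reads, per the labels' protocols. The submitters' processing notes name fastp 0.20.0, HISAT2 2.1.0, featureCounts 1.6.1 and GRCh38. How strand, overlaps and multi-mapped reads were handled, and which annotation was used, is not given in the sources here, so exon bases shared with genes on either strand, stated where they exceed 10% of a described member, make its value uncertain. The authors deposited raw gene-level counts, whole numbers without normalization, and per the file header each row carries exon length. They sum to 15657593 to 17036565 in a library.

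Of 60651 lines, 3 pieces of 1 broken gene entry and 44 empty pseudoautosomal copies were left out. Symbols matched 99.77% of IDs, and gene type and GC content came from GENCODE release 29. edgeR 4.0.16 in R 4.3.3 was used with filterByExpr (15022 genes left), TMM scaling, a robust quasi-likelihood test on group alone, Benjamini-Hochberg adjustment over all genes, threshold 0.05. Alternatives were DESeq2 size factors, library size alone, DESeq2 1.42.0, limma-voom (limma 3.58.1), no filter, restriction to 5 CPM or more or to protein-coding genes, a replicate block, removal of each library's spline trend in GC content and length (also with the block), leave-one-out fits and a threshold of 0.01. Full values are given for called members of at least 5 CPM and for 10 members named by rule, and from each partner list the up to 3 most changed called genes at 5 CPM or more. The members and lists were chosen with earlier results of these data known. On simulated counts (14677 genes) 61% of 100 genes changed 2-fold and 96% of 100 changed 4-fold were recovered and 9.25% of calls were false. Only these genes were changed there, and all simulated libraries shared the same dispersion per gene. In the measured data far more genes were called and BP+Huaier 3 stood apart, so these shares need not hold for the calls above. Replicates differed by 3.76 to 78.7 times what sampling gives, so none was treated as a library deposited more than once, though this does not show separate cultures. Counting floors cover counting error only. Plots used matplotlib 3.10.9 (Python 3.11.15).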

Additional observations from a re-analysis of the deposited data

How the results depend on the processing

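KDM6B, KMT5A, DOT1L and SETD7 kept their direction and call under all 17 alternatives. The counts of called writers were 6 higher and 4 lower (19.4% and 12.9%, against 14.4% and 15% of all tested genes). Leaving out each library in turn gave 2 to 8 higher and 1 to 13 lower writers, 1 to 4 higher and 0 to 3 lower erasers, and 4 to 25 higher and 1 to 29 lower partner genes (10 and 13 with all libraries), with median log2 fold changes of -0.26 to -0.02 for writers and 0.01 to 0.14 for erasers. In each range of counts the highest belongs to the fit without BP+Huaier 3, where 28.8% of all tested genes were higher and 31% lower. Leaving out another library gave 5.27% to 11.4% of all tested genes higher and 5.92% to 11.8% lower. Scaling by library size alone shifted the median over all genes (log2) from -0.02 to -0.28 and gave 3 higher writers, 1 higher and 4 lower erasers and an eraser median of -0.19, so that 4 members were higher and 8 lower instead of 8 and 4. Of all tested genes 7% were then higher and 19.7% lower. With DESeq2 size factors 9 members were higher and 2 lower, both of the latter writers, where 15.2% and 14.3% of all tested genes were called. Without a filter on low counts 7 writers were lower (22.6%, against 9.63% of all tested genes). With genes of at least 5 CPM the eraser median was -0.0184. With DESeq2 18 partners were higher (20.5%, against 18.4% of all tested genes). At an adjusted p under 0.01, 2 writers were higher and 1 lower, 1 eraser was higher, and 4 partners were higher and 1 lower. Of all tested genes 5.5% were then higher and 5.39% lower. After removal of the GC and length trend 5 erasers (29.4%) and 23 partners (26.1%) were higher, against 19% of all tested genes. With that removal and the replicate block together, 7 writers were lower (22.6%, against 17.9% of all tested genes). In that fit 5 erasers (29.4%) and 17 partners (19.3%) were higher, against 16.9% of all tested genes.

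With the replicate number as a block, 1 eraser was higher, and 5 members were higher and 3 lower (9.03% and 11.6% of all tested genes). The block ended the calls of EHMT2 (edgeR adjusted p = 0.07), KDM5C (0.07), KMT5C (0.057), SUV39H2 (0.073) and SETD1B (0.075), and ASH1L was then called lower (0.043). No pairing by number was seen: deviations of same-numbered libraries correlated at 0.01, -0.06 and -0.28. BP 1, BP 2 and BP 3 correlated best with BP+Huaier 3, 3 and 1. Whether same-numbered libraries share a culture or batch cannot be told from these values.

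Of the members with full values that did not pass, KMT2D, EZH2, KDM1A and KDM5B changed sign, which near 0 carries no call unless stated. KMT2D was at 0.0019 after trend removal and 0.0296 without BP+Huaier 2. EZH2 was at -0.0353 with library size alone and -0.26 (lowest) to 0.4034 (highest) when 1 library was left out. KDM1A was at -0.20 with library size alone, -0.0184 with at least 5 CPM, and -0.0049 and -0.0059 after trend removal without and with the block. KDM5B was at 0.0064 with DESeq2 size factors, 0.0123 without a filter, 0.0065 with DESeq2, 0.02 without BP 2, 0.0744 without BP+Huaier 1 and 0.06 without BP+Huaier 2. After trend removal KDM5B was called higher, at 0.41 without and 0.41 with the block (edgeR adjusted p = 0.0054 and 0.014). Why these values moved was not tested.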

Other observations

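Between MAOA and KRBOX4 on the X chromosome, where KDM6A lies, the table lists 40 genes of all classes with 1313 counts over 6 libraries, and 17 of them had any count, at most 149 for a gene in a library. In the narrower stretch from MAOB to DIPK2B (GRCh38, 43766610 to 45200901) the table lists 19 genes of all classes, which had 21 counts in all over 6 libraries, with at most 4 for a gene in a library. Of the 7 protein-coding genes there, KDM6A had 1 count and the other 6 had 0. FUNDC1, which encodes a mitophagy receptor, is among those listed at 0.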
